A study of Bos grunniens with 3 samples.

Results

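The genes *IGFBP3*, *IGFBP5*, *IGFBP6* and *IGFBP7* were described in single cells of yak skin. They were chosen by their symbols, each of which has 1 row, and they are 4 of the 26924 genes in the count tables. The skin came from the scapula of white yaks about 2 years old. In the methods of the study, skin strips were digested with dispase and single hair follicles were pulled out. Cells were then freed from these follicles with trypsin, so they do not stand for whole skin. There were 3 droplet libraries made with the 10x Genomics 3′ kit, 1 each from anagen (the growth stage of the hair follicle), catagen (regression) and telogen (rest). No treatment or genetic change was given to any animal, and the stage is the only sample label that differs between the groups. Each stage was also its own library, and the headers name a different Cell Ranger version for each. A difference between stages therefore cannot be told apart from a difference between libraries. The stage of the catagen library was taken from its title and stage label, although anagen is named in its extraction protocol. The methods of the study name 3 yaks without tying them to libraries, so no spread between animals could be given. That study reports anagen and catagen only and does not describe the telogen library. Whether telogen came from the same yaks or was handled alike is not stated there. Comparisons with telogen therefore also set libraries of the study beside one outside it. With 1 library per stage there was no test, and every interval below is a 95% interval that covers counting error only.

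Insulin-like growth factors (IGFs) are secreted peptides that act through the receptor IGF1R, and the binding proteins hold them in the tissue, release them or keep them from the receptor. *IGFBP3* codes for the main carrier of IGFs in blood and is also made in epidermis. *IGFBP5* codes for a protein that attaches to the extracellular matrix, *IGFBP6* for one that binds IGF2 more strongly than IGF1, and *IGFBP7* for a related protein that binds IGFs weakly and is deposited in basement membranes. In skin, IGF1 made by dermal papilla cells is known to prolong hair growth.

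The libraries held 11987 anagen, 12062 catagen and 14502 telogen cells with at least 200 detected genes, with medians of 5256, 3350 and 5583.5 unique molecular identifiers (UMIs, 1 per captured RNA molecule) per cell. The smallest anagen cell held 2404 UMIs, whereas the catagen and telogen libraries went down to 500. Libraries shared between 40 and 48 cell barcodes, at most 0.398% of a library. Cells of the 3 libraries were integrated and grouped into 24 clusters with the 4 genes and the other IGF pathway genes left out of the genes that defined the clusters. A cluster was called "X-like" where marker genes of a cell type were raised in it, and was otherwise called by its leading genes. The cells were mostly epithelial: the only cluster with both mesenchymal and endothelial leading genes, led by *COL1A2* and *ACKR1*, held 99 anagen, 44 catagen and 50 telogen cells. An S phase-like cluster of 425 anagen, 373 catagen and 122 telogen cells was led by *DCN*, which was also on the mesenchymal marker list. Levels are UMIs of the gene per 1000000 UMIs of the cells summed (CPM).

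Over all cells of a library, *IGFBP3* was highest in anagen, *IGFBP6* in telogen and *IGFBP7* in catagen, while *IGFBP5* varied least. *IGFBP3* was at 257.5 CPM in anagen (interval 254 to 260.9), 58.4 CPM in catagen (56.4 to 60.6) and 72.4 CPM in telogen (70.8 to 74.0). It was thus 4.41-fold lower in catagen (log2 ratio -2.14, interval -2.19 to -2.08) and 3.56-fold lower in telogen (-1.83, -1.87 to -1.79) than in anagen, and the latter libraries differed less from each other (telogen over catagen 0.31, 0.25 to 0.37). *IGFBP6* was at 49.6 CPM in anagen, 9.26 CPM in catagen and 160.3 CPM in telogen, from 4111, 477 and 16580 UMIs. The catagen level was 5.36-fold below anagen (log2 ratio -2.42, interval -2.56 to -2.29), and the telogen level was 3.23-fold above anagen (1.69, 1.64 to 1.74) and 17.3-fold above catagen (4.11, 3.98 to 4.25).

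*IGFBP7* was at 535.5 CPM in anagen, 1160 CPM in catagen and 730.1 CPM in telogen. Its catagen level was 2.17-fold above anagen (log2 ratio 1.12, interval 1.10 to 1.13), and telogen lay between both (0.45 over anagen and -0.67 over catagen). *IGFBP5* was at 119.6 CPM in anagen, 109.5 CPM in catagen and 78.5 CPM in telogen. None of its ratios reached 2-fold: it was lower by a log2 ratio of -0.13 in catagen and -0.61 in telogen against anagen. Telogen over catagen was -0.48 by CPM but 0.02 when libraries were scaled by median-of-ratios size factors, so this pair of libraries gave no stable direction for *IGFBP5*.

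**Figure D1:**
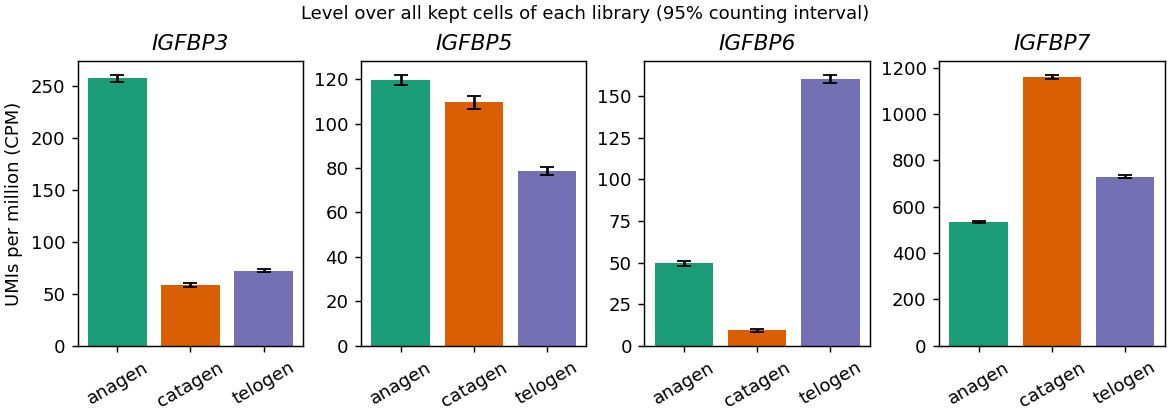
Level of each gene (y axis, CPM, each panel with its own scale from 0) over all kept cells of the anagen, catagen and telogen library; bars are the summed level of 1 library and whiskers the 95% counting interval. *IGFBP3* stands at 257.5 CPM in anagen against 58.4 and 72.4 CPM in the other libraries, and *IGFBP6* at 160.3 CPM in telogen against 9.26 CPM in catagen.

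These sizes were set beside those of all genes with at least 10 CPM in either library. In catagen over anagen, 2 of the 4 genes were at least 2-fold lower (*IGFBP3* and *IGFBP6*), as were 3.47% of 6054 genes, and 1 was at least 2-fold higher (*IGFBP7*), as were 4.41%. In telogen over anagen, *IGFBP3* was at least 2-fold lower, as were 7.83% of 5733 genes, and *IGFBP6* was at least 2-fold higher, as were 3.0%. In telogen over catagen only *IGFBP6* passed 2-fold, upward, as did 4.10% of 5971 genes, and none of the 4 passed it downward, as did 12%. The *IGFBP6* ratio of telogen over catagen ranked 8 of 5971 from the highest. The *IGFBP3* and *IGFBP6* ratios of catagen over anagen ranked 49 and 37 of 6054 from the lowest. With the median-of-ratios factors every catagen over anagen ratio shifted by -0.25, every telogen over anagen ratio by 0.25 and every telogen over catagen ratio by 0.50. On that scale *IGFBP7* in catagen over anagen was 0.86, under 2-fold.

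The share of cells with a UMI was highest in the same library as the summed level for *IGFBP3*, *IGFBP6* and *IGFBP7*. Cells were thinned to 1500 UMIs each, and those with fewer (0 in anagen, 2263 in catagen and 2932 in telogen) were not used. In the thinned cells *IGFBP3* was seen in 18.4% of anagen, 6.65% of catagen and 6.33% of telogen cells (32.3%, 9.96% and 12.7% before thinning). *IGFBP6* was seen in 6.85%, 1.64% and 17.0% (17.3%, 3.26% and 32.1% before thinning), *IGFBP7* in 42.1%, 58.7% and 49.5% (68.7%, 72.5% and 69.5%), and *IGFBP5* in 13.5%, 13.0% and 9.50% (28.2%, 18.5% and 19.0%). In inner root sheath-like cells, whose median depth was 4412.5 UMIs in anagen, 6914 in catagen and 12262 in telogen, the thinned shares were 13.3%, 0.467% and 2.50% for *IGFBP3* and 2.53%, 0.467% and 1.67% for *IGFBP6*. The corresponding shares there were 4.73%, 2.34% and 1.67% for *IGFBP5* and 22.1%, 9.81% and 10.0% for *IGFBP7*. A share at or below these can hold free RNA, which was not tested, but is not background by itself. In anagen an unnamed cluster led by *ANGPTL2* and *MYLK* had *IGFBP3* in 11.8% of thinned cells. Its level was 191 CPM, above the 108.9 CPM of the inner root sheath-like cells. Of thinned cells, 44.5% in anagen, 38.5% in catagen and 40.3% in telogen held no UMI of any of the 4 genes, and at most 0.526% held all 4.

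**Figure D2:**
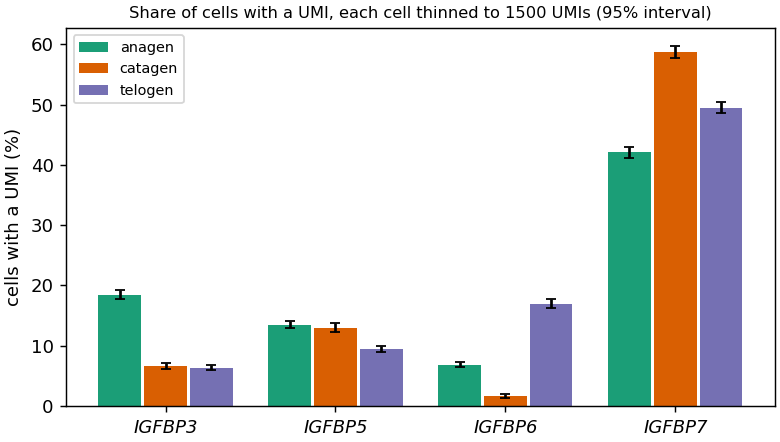
Share of cells with at least 1 UMI of each gene (y axis, percent of cells) in the anagen, catagen and telogen library after each cell was thinned to 1500 UMIs; whiskers are 95% Clopper-Pearson intervals. *IGFBP6* goes from 1.64% of catagen cells to 17.0% of telogen cells, and *IGFBP3* from 18.4% of anagen cells to 6.65% and 6.33%.

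*IGFBP3* had 2 main sites in anagen, the bulge or outer root sheath (bulge/ORS)-like cells and the basal epidermal-like cells. The bulge, part of the outer root sheath, holds the stem cells of the follicle, and basal cells are the dividing layer of the epidermis. Among bulge/ORS-like cells, a cluster led by *C3*, *LCN2* and *WIF1* held 1327 CPM of *IGFBP3* in anagen, 275.5 CPM in catagen and 156.1 CPM in telogen. The basal epidermal-like cluster, led by *CCL27* and *IL1R2*, held 1256 CPM in anagen, 43.3 CPM in catagen and 467 CPM in telogen. The intervals of both clusters overlapped in anagen (1278 to 1378 and 1223 to 1289 CPM), and both lay above every other cluster of at least 50 cells. In catagen the basal epidermal-like level was 0.726-fold that of all other cells of the library, and the bulge/ORS-like clusters were the highest among clusters of at least 50 cells. A share of 60.2% of thinned basal epidermal-like cells held an *IGFBP3* UMI in anagen, 4.58% in catagen and 30.9% in telogen.

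A smaller bulge/ORS-like cluster led by *CLDN10* and *FNDC1*, with the smooth muscle actin gene *ACTA2* among its 10 leading genes, held *IGFBP3* at 834.1 CPM in anagen, 329.9 CPM in catagen and 166.1 CPM in telogen. At a higher clustering resolution, 82 anagen, 84 catagen and 35 telogen cells, at least 93.9% of them from that cluster, formed a contractile-like cluster with *TAGLN* at 3716, 5334 and 5190 CPM. *IGFBP3* was at 1455 CPM (interval 1366 to 1549) in its anagen cells, 303.6 CPM in its catagen cells and 424.5 CPM in its telogen cells. These cells held keratin 14 UMIs at 3041, 2513 and 4660 CPM, and at most 4.40 CPM of the collagen gene *COL1A2*.

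In telogen the highest *IGFBP3* level was in the *COL1A2*/*ACKR1* cluster, at 1351 CPM (interval 1218 to 1495), against 401.3 CPM in anagen and 343.1 CPM in catagen. With telogen clustered alone the highest telogen class of at least 50 cells was instead basal epidermal-like, at 503.3 CPM. With at least 1000 genes per cell the highest ranked telogen class was also basal epidermal-like, at 477.3 CPM. Only classes of at least 50 cells were ranked, and the *COL1A2*/*ACKR1* cluster, with 50 telogen cells before that filter, was no longer ranked. Its level was therefore not overtaken in that setting. The *COL1A2*/*ACKR1* cluster was a mixture, and its cells were divided by whether endothelial or mesenchymal marker UMIs prevailed. The cells with more endothelial UMIs (60 anagen, 33 catagen and 39 telogen cells) held *IGFBP3* at 339.5, 271.2 and 1174 CPM. The cells with more mesenchymal UMIs numbered 37, 5 and 6, and held 377.4, 852.9 and 4103 CPM, from 68, 13 and 93 UMIs. Keratin 14 UMIs were at 7105, 5165 and 7013 CPM in the endothelial-leaning cells and at 4690, 262.4 and 13676 CPM in the mesenchymal-leaning cells, against 10602, 11744 and 20286 CPM over all cells of each library, and the part of this epithelial RNA in the levels was not tested.

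*IGFBP5* was concentrated in the bulge/ORS-like cells at every stage. The *WIF1* cluster held 1150 CPM in anagen (interval 1104 to 1197), 566.1 CPM in catagen (541.2 to 591.8) and 851.3 CPM in telogen (818.1 to 885.6), the highest level of any cluster in each library, and 12.3, 7.36 and 15.1 times that of all other cells. An unnamed cluster led by *PTHLH* and *ENPP1* followed in catagen and telogen, with 471.8 CPM in anagen, 521.9 CPM in catagen and 343 CPM in telogen. In catagen the intervals of these clusters overlapped (541.2 to 591.8 against 498.9 to 545.6 CPM), and each of them held 34.4% of the *IGFBP5* UMIs of the library.

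The *CLDN10* cluster was next in anagen, with 614.7 CPM of *IGFBP5*, and held 335.8 CPM in catagen and 207.8 CPM in telogen. After thinning, an *IGFBP5* UMI was seen in 70.2% of *WIF1* cluster cells in anagen, 46.6% in catagen and 57.1% in telogen, against at most 4.73% of inner root sheath-like cells in any library. In the basal epidermal-like cluster *IGFBP5* was at 90.0 CPM in anagen, 14.7 CPM in catagen and 89.7 CPM in telogen. It was at 25, 10.8 and 17.9 CPM in the inner root sheath-like cluster, whose cells make the sheath around the growing hair.

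*IGFBP6* was spread over basal and follicular cells in anagen, and in telogen its highest level was in the basal epidermal-like cells. In anagen the *COL1A2*/*ACKR1* cluster held 286.9 CPM (interval 241 to 339), the *CLDN10* cluster 218.3 CPM (197.3 to 240.8), the basal epidermal-like cluster 196.7 CPM (183.8 to 210.3) and the *WIF1* cluster 183.9 CPM (165.9 to 203.3). The latter 3 levels did not differ beyond their intervals from one to the next. In telogen the basal epidermal-like cluster held 958.1 CPM (929.6 to 987.2), ahead of an S phase-like cluster led by *MCM3* and *HELLS* with 420.9 CPM (397.8 to 445). The basal epidermal-like cluster held 25.9% of the *IGFBP6* UMIs of the telogen library and already 20.8% in anagen. Its level was 7.71 times that of all other cells in telogen and 4.74 times in anagen.

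In catagen the *COL1A2*/*ACKR1* cluster held 127.4 CPM from 13 UMIs in 44 cells (interval 67.9 to 217.9), the *CLDN10* cluster 72.1 CPM (58.6 to 87.8) and the basal epidermal-like cluster 22.2 CPM. An *IGFBP6* UMI was seen in 21.7% of thinned basal epidermal-like cells in anagen, 3.29% in catagen and 57.9% in telogen. In the mixed *COL1A2*/*ACKR1* cluster, the mesenchymal-leaning cells held *IGFBP6* at 510.6 CPM in anagen, 393.6 CPM in catagen and 705.9 CPM in telogen, and the endothelial-leaning cells at 159.4, 77.5 and 376.1 CPM, with 6 UMIs behind each catagen value.

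*IGFBP7* was the most widespread of the 4 and had its highest level in a small unnamed cluster led by *FGF18* and *PMP22*, with *KRT75*, a keratin of the companion layer, among its 10 leading genes. This cluster held 6724 CPM in 48 anagen cells, 9057 CPM in 389 catagen cells (interval 8884 to 9233) and 6538 CPM in 158 telogen cells (6355 to 6725). After thinning, an *IGFBP7* UMI was seen in 99.7% of its catagen and 98.6% of its telogen cells. With 15 principal components the highest *IGFBP7* class was bulge/ORS-like, at 4205 CPM in catagen and 2837 CPM in telogen. That class included *FGF18*/*PMP22* cells, which made up 13.4% of its 2510 catagen and 9.21% of its 1325 telogen cells. It was thus a merged class and not a separate site. With telogen clustered alone the highest telogen class was bulge/ORS-like too, at 2448 CPM, with 0% of its cells from the *FGF18*/*PMP22* cluster. The bulge/ORS-like and *PTHLH*/*ENPP1* clusters also had high levels: the *WIF1* cluster held 2363, 3048 and 2743 CPM in anagen, catagen and telogen, the *CLDN10* cluster 2167, 3117 and 1579 CPM, and the *PTHLH*/*ENPP1* cluster 1751, 2876 and 2113 CPM.

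An outer root sheath-like cluster led by *PDZRN3* and *TPM1* held *IGFBP7* at 1400 CPM in anagen, 1479 CPM in catagen and 1752 CPM in telogen, with *IGFBP3* and *IGFBP5* at no more than 59.3 CPM there. The lowest *IGFBP7* levels included those of 2 named clusters. The inner root sheath-like cluster held 106.1, 95.6 and 100.7 CPM, and a suprabasal epidermal-like cluster led by *KRT2* and *KRT77*, keratins of the upper epidermis, held 71.7, 74.7 and 54.4 CPM. A granular keratinocyte-like cluster led by *GABRP* and *KRT75* was higher, at 691.4, 766.6 and 776.1 CPM. In the endothelial-leaning cells of the *COL1A2*/*ACKR1* cluster *IGFBP7* was at 1895 CPM in anagen, 426.1 CPM in catagen and 1550 CPM in telogen, from 547, 33 and 371 UMIs.

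**Figure D3:**
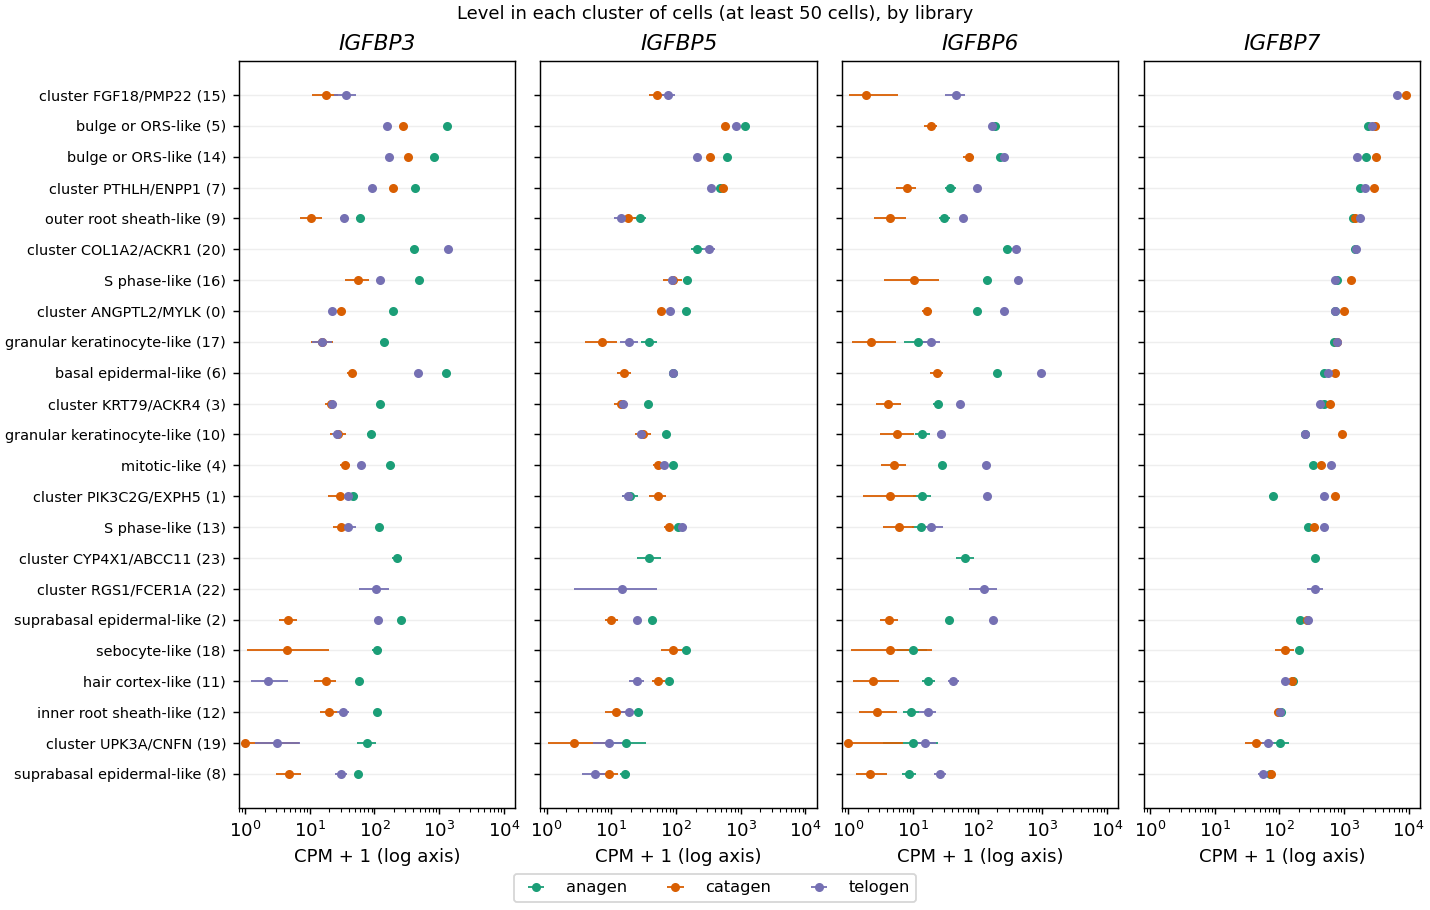
Level of each gene (x axis, CPM plus 1, log axis) in each cluster with at least 50 cells of a library (y axis; cluster numbers in brackets, ordered by the mean *IGFBP7* level), in anagen, catagen and telogen; whiskers are 95% counting intervals. *IGFBP7* peaks in the *FGF18*/*PMP22* cluster at 6538 to 9057 CPM, *IGFBP5* in the *WIF1* bulge/ORS-like cluster (5), and *IGFBP6* reaches 958.1 CPM in telogen basal epidermal-like cells (6).

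The stage differences were then followed within clusters that held at least 50 cells in both libraries compared, 19 clusters in each comparison. A cluster was counted as 2-fold where the higher library had at least 10 CPM. The shares of genes given beside these counts are of all genes with at least 10 CPM in either whole library. Genes under 10 CPM in a cluster could not count there, so these shares also depend on level. *IGFBP3* in anagen and *IGFBP6* in telogen reached 10 CPM in all 21 clusters of at least 50 cells. *IGFBP3* was at least 2-fold lower in catagen than in anagen in 18 of 19 clusters, which 0.165% of genes matched, and 1 of the 18, led by *UPK3A* and *CNFN*, held 33 anagen UMIs and no catagen UMI. The ratio nearest to 0 was in a cluster led by *PIK3C2G* and *EXPH5* (log2 ratio -0.69) and the farthest from it in a suprabasal epidermal-like cluster led by *KRT1* and *SEMA3C* (-6.14, interval -6.78 to -5.56, 252.3 against 3.58 CPM). The catagen level in this suprabasal cluster was close to the 3.42 CPM allowed for free RNA there, so the size of its ratio rests on a level near that allowance. A sebocyte-like cluster among the 18 had an anagen level near its allowance too (108.7 against 97.9 CPM). In those cells the *IGFBP6* level lay below its allowance (8.94 against 18.9 CPM), so the allowance was too high there to measure free RNA. In the basal epidermal-like cluster the ratio was -4.86 (-5.10 to -4.63), in the *WIF1* cluster -2.27 (-2.38 to -2.16) and in the *CLDN10* cluster -1.34 (-1.49 to -1.19).

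In telogen over anagen *IGFBP3* was at least 2-fold lower in 15 of 19 clusters, as were 1.57% of genes in as many, and it was higher in 1, the *COL1A2*/*ACKR1* cluster (1.75, interval 1.5 to 2.01). Telogen over catagen went both ways. *IGFBP3* was higher in telogen in the *KRT1*/*SEMA3C* suprabasal cluster (4.98, interval 4.40 to 5.62) and the basal epidermal-like cluster (3.43, 3.2 to 3.68), and lower in the *WIF1* cluster (-0.82, -0.98 to -0.66), the *CLDN10* cluster (-0.99, -1.19 to -0.79) and the *PTHLH*/*ENPP1* cluster (-1.09, -1.27 to -0.90). The ratio of the suprabasal cluster rests on a catagen level near its allowance for free RNA (3.58 against 3.42 CPM). The whole-library ratio of 0.31 thus held opposite differences in these clusters, which were not tested against each other. Of 18 clusters with a ratio, 11 were higher and 7 lower in telogen. Follicle-like cells did not all go 1 way. *IGFBP3* was higher in telogen in the *PDZRN3*/*TPM1* outer root sheath-like cluster (32.8 against 9.53 CPM). The contractile-like cells, mostly from the *CLDN10* cluster, gave no clear direction. Their *IGFBP3* level was 424.5 CPM in telogen (interval 354.2 to 504.7) and 303.6 CPM in catagen (254.4 to 359.6). These intervals overlapped, and the 35 telogen cells were fewer than the minimum set for comparing clusters.

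*IGFBP6* was at least 2-fold lower in catagen than in anagen in 15 of 19 clusters, as were 0.578% of genes in as many. Some of these had an anagen level near the allowance for free RNA. They included the *PIK3C2G*/*EXPH5* cluster (12.9 against 12.7 CPM) and the S phase-like cluster led by *DCN* and *NOTUM* (12.1 against 11 CPM). In anagen *PIK3C2G*/*EXPH5* cells the *IGFBP3* level lay below its allowance (46.1 against 65.9 CPM), so the allowance was too high there to measure free RNA. Telogen was at least 2-fold higher than catagen in all 19 clusters, as were 0.134% of genes. These ratios ran from 1.80 in the *CLDN10* cluster to 5.73 in the *KRT1*/*SEMA3C* suprabasal cluster, and the *UPK3A*/*CNFN* cluster held no catagen UMI against 21 in telogen. Catagen *IGFBP6* counts within clusters were low, from 0 to 101 UMIs. In some clusters the telogen level lay below the allowance for free RNA. These were the *DCN*/*NOTUM* S phase-like cluster (18.3 against 99.9 CPM) and the *GABRP*/*KRT75* granular keratinocyte-like cluster (17.9 against 37.3 CPM). There the allowance exceeded all the *IGFBP6* RNA counted, so it was too high to measure free RNA. The part of free RNA in these ratios was not tested. No allowance was computed for the inner root sheath-like and hair cortex-like clusters. In telogen over anagen 11 of 19 clusters were at least 2-fold higher, as were 1.34% of genes in as many. The basal epidermal-like cluster was among them (2.28, interval 2.18 to 2.39), whereas the *WIF1* cluster (-0.17, -0.37 to 0.02) and the *CLDN10* cluster (0.20, 0.02 to 0.39) held nearly equal levels in anagen and telogen.

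*IGFBP5* was at least 2-fold lower in catagen than in anagen in 9 of 19 clusters, as were 2.46% of genes in as many. The *WIF1* cluster was one of them (-1.02, interval -1.11 to -0.94), and the basal epidermal-like cluster had a ratio of -2.61 (-3.06 to -2.20), whereas the *PTHLH*/*ENPP1* cluster had 0.15 (0.04 to 0.25). *IGFBP7* was at least 2-fold higher in catagen than in anagen in only 2 of 19 clusters, as were 27.3% of genes in as many: the *PIK3C2G*/*EXPH5* cluster (3.23) and a granular keratinocyte-like cluster led by *ATP12A* and *SLC15A1* (1.88, interval 1.76 to 2.00). The *PIK3C2G*/*EXPH5* cells had a median of 3909.5 UMIs in anagen, 770 in catagen and 1025 in telogen, and the part of that difference in depth was not tested. Its anagen *IGFBP7* level of 78.7 CPM lay below the 137 CPM allowed for free RNA there, so the allowance was too high to measure free RNA. The part of free RNA in this ratio was not tested. Among the clusters compared, those with the most *IGFBP7* had ratios of 0.37 (*WIF1* cluster), 0.52 (*CLDN10* cluster) and 0.72 (*PTHLH*/*ENPP1* cluster). The *FGF18*/*PMP22* cluster, with a higher level, was not compared because it held only 48 anagen cells.

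**Figure D4:**
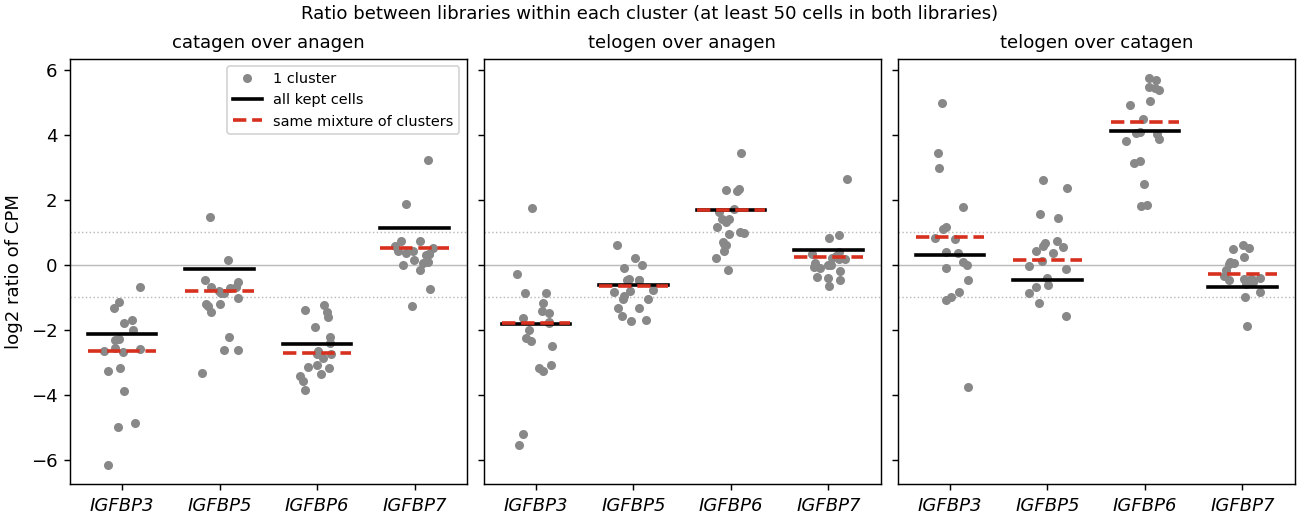
log2 ratio of CPM (y axis) for each gene (x axis) in catagen over anagen, telogen over anagen and telogen over catagen; each grey point is 1 of 19 clusters with at least 50 cells in both libraries and UMIs in both, the black line the ratio over all kept cells and the red dashed line the ratio after all libraries were given the same mixture of 18 clusters (dotted lines mark 2-fold). *IGFBP6* lies above 0 in every plotted cluster for telogen over catagen. For *IGFBP7* in catagen over anagen the lines lie at 1.12 (all cells) and 0.51 (same mixture, without the *FGF18*/*PMP22* cluster).

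The libraries differed in how many cells each cluster held. The *WIF1* cluster made up 4.09% of anagen, 12.9% of catagen and 4.73% of telogen cells, and the *FGF18*/*PMP22* cluster 0.40%, 3.23% and 1.09%. Each library was therefore also summed with the same mixture of 18 clusters, which held 95.2% to 97.5% of the cells. Only clusters with at least 50 cells in all 3 libraries entered the mixture. The *FGF18*/*PMP22* cluster, with 48 anagen cells, was thus left out. It held 3.39%, 17.4% and 6.39% of the *IGFBP7* UMIs of the anagen, catagen and telogen library. The ratios of *IGFBP3* in catagen over anagen (-2.66 against -2.14 over all cells) and of *IGFBP6* in telogen over anagen (1.69 in both) and telogen over catagen (4.39 against 4.11) were as large or larger. For *IGFBP7* catagen over anagen the ratio was 0.51 against 1.12, a fold of 1.42 in place of 2.17. For *IGFBP5* it was -0.79 against -0.13, and telogen over catagen turned from -0.48 to 0.15. The change in *IGFBP7* between anagen and catagen over whole libraries was thus larger than that at a fixed mixture, and the change in *IGFBP5* smaller. For *IGFBP7* the fixed mixture also lacked the *FGF18*/*PMP22* cluster, and the part of that omission in the ratio of 0.51 was not tested.

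The other IGF pathway genes were given from a list of 32, of which 27 have a row in the tables. The ligand *IGF1* had 35 UMIs in anagen, 9 in catagen and 14 in telogen, of which 13 in anagen and 10 in telogen lay in the *COL1A2*/*ACKR1* cluster, and the insulin gene *INS* had 0 in every library. Among the other binding proteins, *IGFBP2* had 1, 0 and 2 UMIs and *IGFBP1* 7, 2 and 9. *IGFBP4* was highest in the *COL1A2*/*ACKR1* cluster in anagen and telogen (93.6 and 151.3 CPM) and, among catagen clusters of at least 50 cells, in the *CLDN10* cluster (59.7 CPM). *IGF1R*, the main IGF receptor, was highest in a bulge/ORS-like cluster among clusters of at least 50 cells in each library, at 36.7, 42.2 and 19.7 CPM.

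Of the 9 pathway genes with at least 10 CPM in catagen over anagen, 1 was at least 2-fold higher, the insulin receptor gene *INSR* (log2 ratio 1.14, interval 0.96 to 1.32), and 0 lower, with a median of 0.42 against 0.05 over all genes. In telogen over anagen 1 of 9 was higher, *HTRA1* (1.44, interval 1.30 to 1.58), and 0 lower, with a median of -0.38 against -0.18. In telogen over catagen 1 of 10 was higher, again *HTRA1* (1.88, 1.69 to 2.07), and 2 were lower, *INSR* (-1.28) and *IGF1R* (-1.15), with a median of -0.66 against -0.25. Of all genes with at least 10 CPM in either library, 4.41%, 3.0% and 4.10% were at least 2-fold higher in these comparisons, in the same order. The shares at least 2-fold lower were 3.47%, 7.83% and 12%. Counts of 1 or 2 among 9 or 10 pathway genes were not tested against these shares and are too few to set the list apart. *HTRA1* codes for a secreted serine protease that can cleave IGF binding proteins. Among clusters of at least 50 cells, its highest was the basal epidermal-like one at every stage, at 34.2 CPM in anagen, 25 CPM in catagen and 91.1 CPM in telogen. The next clusters were close in anagen (*COL1A2*/*ACKR1*, 33.3 CPM) and catagen (*CLDN10*, 21.1 CPM), so only the telogen lead was clear.

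*HTRA1* was also the gene whose levels followed *IGFBP6* most closely. Pearson correlations of log2 levels, with 10 CPM added, were computed over 62 points, each 1 cluster in 1 library, among 3890 genes. The points share libraries, depth and clusters, so the values are descriptions. For *IGFBP6* they were 0.86 for *HTRA1*, 0.82 for the immunoproteasome subunit gene *PSMB10* and 0.80 for *NMI*. Within the anagen, catagen and telogen library alone they were 0.88, 0.76 and 0.93 for *HTRA1* and lower than over all points for the others. These were 0.66, 0.59 and 0.76 for *PSMB10* and 0.75, 0.67 and 0.79 for *NMI*. For *IGFBP3* the correlations over all points were 0.75 for *ADAMTSL5*, 0.73 for *CASKIN2* and 0.73 for *RASSF8*. For *IGFBP5* they were 0.82 for *LTBP4*, a gene for a protein that binds latent TGF-beta, 0.82 for *LFNG*, which codes for an enzyme that adds sugars to Notch receptors, and 0.81 for *NEDD9*. For *IGFBP7* they were 0.84 for *SFRP1*, a secreted Wnt inhibitor that was also among the bulge/ORS markers, 0.84 for *P4HA2*, a collagen prolyl hydroxylase, and 0.82 for *USP28*.

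Among the 4 genes themselves the correlation over all points ran from 0.35 for *IGFBP6* and *IGFBP7* to 0.71 for *IGFBP3* and *IGFBP5*, but the order differed within libraries. *IGFBP3* and *IGFBP6* reached 0.86 in anagen, 0.77 in catagen and 0.78 in telogen, against 0.76, 0.85 and 0.63 for *IGFBP3* and *IGFBP5* and 0.74, 0.48 and 0.41 for *IGFBP6* and *IGFBP7*. Within clusters, the number of cells with UMIs of both *IGFBP3* and *IGFBP5* was a median of 1.19 times the number given by their separate shares, over 14 pairs of a cluster and a library with a range of 0.593 to 1.95. For *IGFBP5* and *IGFBP7* the median was 1.13 over 29 pairs (0.556 to 2.23), and for *IGFBP5* and *IGFBP6* it was 1.02 over 11 pairs (0.503 to 1.47). On the RefSeq yak assembly, *IGFBP3* lies next to *IGFBP1* and *IGFBP5* next to *IGFBP2*, and both neighbours were at or near 0 in these libraries.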

How the data were processed

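Skin cells of 1 anagen, 1 catagen and 1 telogen library were analysed, grouped by their stage labels. The authors deposited raw UMI counts per gene and cell barcode without normalization. Per the methods of the study, which cover anagen and catagen, reads had been aligned with STAR and cells called by Cell Ranger. The file headers name Cell Ranger versions 4.0.0 (anagen), 3.1.0 (catagen) and 6.0.2 (telogen), and the submitters' processing notes name 2.1.1. The genes, gene lists and markers were chosen with earlier results of these data known.

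The cell filter was a minimum of 200 detected genes, and 13, 62 and 71 cells failed it. Scrublet called 0, 1 and 0 doublets, so its threshold had not worked, and doublets were left in; without the 5% of cells with the highest scores was an alternative. Seurat 5.3.0 in R 4.3.3 integrated the libraries by canonical correlation over 2000 variable genes and clustered them with 30 components, 20 neighbours and a resolution of 0.8. Of 112 markers, 97 have a row. A name needed at least 3 markers raised at least 1.5-fold, with 10 CPM added, and 1 marker among the 10 leading genes, limits chosen after the clusters had been seen. The names of clusters 20 and 22 were withdrawn because leading genes went against them.

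UMIs were summed per library or cluster and given as CPM, with exact Poisson intervals for levels, exact conditional (Clopper-Pearson) intervals for ratios and Clopper-Pearson intervals for shares, all at 95%, in Python 3.11.15 (scipy 1.17.1, scanpy 1.11.5, pandas 2.3.3, numpy 2.4.6). PCR and capture error are outside these intervals. With 1 library per stage no p-value was given. A total of 3 counts, the limit that a count of 0 allows, came to 0.0362, 0.0582 and 0.0290 CPM in the anagen, catagen and telogen library. For free RNA, the ratio of the inner root sheath keratins *KRT71*, *KRT25*, *KRT27* and *KRT28* in a cluster to the whole library gave an allowance. It was 0.13 or less of the whole-library level in the *WIF1*, *CLDN10*, *PTHLH*/*ENPP1* and basal epidermal-like clusters, and 0.256, 0.339 and 0.389 in the *PIK3C2G*/*EXPH5* cluster. Genes named beyond the 4 were the 3 most alike over clusters with at least 50 CPM in 1 of them, and the IGF pathway list. The ratio and interval scripts were tested on simulated data.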

Additional observations from a re-analysis of the deposited data

Results flagged for a closer look

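Within single clusters some stage ratios went in opposite directions, and these differences between clusters were not tested. *IGFBP3* in telogen over anagen was 1.75 on the log2 scale in the *COL1A2*/*ACKR1* cluster (375 UMIs in telogen and 193 in anagen) and -5.54 in the hair cortex-like cluster (3 and 256 UMIs). *IGFBP3* in telogen over catagen was 4.98 in the *KRT1*/*SEMA3C* suprabasal epidermal-like cluster (1263 and 24 UMIs) and -3.74 in the hair cortex-like cluster (3 and 24 UMIs). The catagen level in the suprabasal cluster (3.58 CPM) was near the allowance for free RNA (3.42 CPM).

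*IGFBP5* in catagen over anagen was 1.47 in the *PIK3C2G*/*EXPH5* cluster (45 and 49 UMIs) and -3.33 in the *UPK3A*/*CNFN* cluster (1 and 7 UMIs). *IGFBP5* in telogen over catagen was 2.61 in the basal epidermal-like cluster (402 and 53 UMIs) and -1.57 in the *PIK3C2G*/*EXPH5* cluster (72 and 45 UMIs). *IGFBP7* in catagen over anagen was 3.23 in the *PIK3C2G*/*EXPH5* cluster (647 and 208 UMIs) and -1.26 in the *UPK3A*/*CNFN* cluster (27 and 45 UMIs). The *PIK3C2G*/*EXPH5* cells had a median of 3909.5 UMIs in anagen against 770 in catagen and 1025 in telogen, whose part was not tested. In them *IGFBP5* in anagen (18.5 CPM) and telogen (17.3 CPM) and *IGFBP7* in anagen (78.7 CPM) lay below the allowance for free RNA (30.6, 30.5 and 137 CPM). The allowance was thus too high to measure free RNA in these cells.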

How the results depend on the processing

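Whole-library ratios were recomputed under 8 alternatives, 96 values in all, none of which turned the direction of a 2-fold difference; 50 stayed within counting error and 46 moved beyond it. *IGFBP6* in telogen over catagen ranged from 4.01 to 4.62, *IGFBP3* in catagen over anagen from -2.39 to -2.00 and *IGFBP7* in catagen over anagen from 0.86 to 1.22. The number of the 4 genes at least 2-fold higher in catagen than in anagen was 0 in place of 1 with median-of-ratios factors, with at least 1000 genes per cell and with cells of at least 2404 UMIs. With median-of-ratios factors the IGF pathway genes at least 2-fold higher were 0 in catagen over anagen and 2 in telogen over catagen, and 0 were lower in the latter. When telogen was clustered alone, the class with the highest level drew most of its cells from the main highest class in 7 of 12 pairs of a gene and a library, with 73.3% to 93.9% of its cells in them. Without thinning or with thinning to 3000 UMIs, 23 of 24 shares of cells moved beyond their intervals. Leaving out the *PIK3C2G*/*EXPH5* cluster, using single clusters in place of classes, the contractile-like cells and the fixed mixture were added after seeing the data. No paired analysis was possible because each stage had 1 library. Levels under 0.0582 CPM in catagen, 3 UMIs, lie below what its depth can show.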
